A study of Mus musculus with 4 samples.

Results

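The genes examined were 9 genes of B cell receptor (BCR) signalling, taken by name from the 31053 genes counted: the receptor chains Cd79a and Cd79b, the kinases Lyn, Syk and Btk, the adaptor Blnk, the lipase Plcg2, and the inhibitors Cd22 and Ptpn6. They were measured by droplet-based single-cell RNA sequencing in B220+IgD- cells sorted from mouse spleens. The mice had been given sheep red blood cells (SRBC) 10 days earlier to induce germinal centers (GC). Cγ1-cre was present in all of them and is active in B cells that transcribe the IgG1 constant region. The genotypes were no floxed allele (WT), Crebbp fl/+ (C), Kmt2d fl/+ (K) and both floxed alleles in the heterozygous state (CK), so that the mutants model loss of 1 copy from the GC stage onward and the WT mouse shares the cre. Each genotype was 1 mouse and 1 library, and values of the libraries are listed throughout as WT, C, K, CK. The study describes the mice as females on a C57BL/6J background, aged 8 weeks.

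Signalling starts when antigen binds surface immunoglobulin, whose signal chains, the proteins of Cd79a and Cd79b, carry the tyrosine motifs of the receptor. Lyn phosphorylates these motifs, Syk binds to them and phosphorylates the adaptor Blnk, and Blnk brings Btk and Plcg2 together. Plcg2 cleaves a membrane lipid into messengers that release calcium and activate protein kinase C. Lyn also phosphorylates the sialic acid-binding receptor Cd22, which recruits the phosphatase SHP-1, encoded by Ptpn6, and this damps the signal. In the GC, centroblasts (CB) divide and mutate their immunoglobulin genes in the dark zone, and centrocytes (CC) bind antigen and meet T cells in the light zone.

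The files held 39009 barcodes and 33270825 to 39803865 UMIs per library (unique molecular identifiers, each counting 1 captured transcript). The deposited annotation named 1227, 2041, 2583 and 3953 GC B cells, all listed with at most 2499 genes, and 143 barcode sequences, 9 of them annotated, occurred in more than 1 library. B cells outside the GC are not in the annotation and were taken from clusters made here without the 9 genes. These non-GC B-like cells numbered 1836, 3250, 1390 and 2074. Summed over 6 markers of naive follicular cells they held 2424 to 2566 CPM (the gene's UMIs scaled to a common total of UMIs per library and class), against 76.5 to 167 CPM in CB, while 8 GC markers summed to 140 to 186 CPM against 2116 to 2373 CPM. They were divided into follicular-like and marginal zone-like cells, whose 6 marginal zone markers summed to 3457 to 3738 CPM in the latter and 812 to 1000 CPM in the former. T-like cells made up 19.4 to 25.4% of the clustered cells, although the sort was on a B cell marker, and their levels of the B cell genes were read as the background of free RNA. An unnamed cluster of 1277 cells that also held T cell markers is not in this share. The 6 follicular markers also summed to 1490 to 1798 CPM in T-like cells. In the prememory cells of the annotation they summed to 1051 to 1231 CPM. Ddx3y, a gene of the Y chromosome, held 42.4 to 68.7 CPM in every library and Xist at most 13 UMIs, which goes against the description as females; the genotype labels do not rest on this. In CB, Crebbp was at 64.4, 45.2, 42.9 and 39.9 CPM, and Kmt2d at 24.9, 15.4, 8.53 and 16.1, but reads at transcript ends may lie outside the deleted exons and do not check the genotypes. The K library stood apart from the others: a cluster of GC B-like cells with 416 cells in WT, 579 in C and 1097 in CK held 60 in K, while another with 62, 77 and 100 held 824 in K.

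Sequence before the start sites is shown for 4 genes, since Cd79a, Cd22 and Ptpn6 were higher in CC than in CB while Blnk was not. The windows are the 250 bases before the start in the RefSeq annotation of GRCm38.p6, 5′ to 3′ on the strand of the gene, at chr7:24897247-24897496 (plus strand) for Cd79a, chr7:30879029-30879278 (minus) for Cd22, chr6:124738710-124738959 (minus) for Ptpn6 and chr19:40994222-40994471 (minus) for Blnk. These starts differ from the ends of the genes in the GENCODE coordinates given below. By those coordinates the windows of Cd22 and Blnk lie inside the gene, and those of Cd79a and Ptpn6 run past the gene start. Capitals mark matches, on either strand, to the E box CAGGTG of E2A, the octamer ATTTGCAT and the ETS core AGGAAG, all of which are bound by factors of the B lineage.
Cd79a: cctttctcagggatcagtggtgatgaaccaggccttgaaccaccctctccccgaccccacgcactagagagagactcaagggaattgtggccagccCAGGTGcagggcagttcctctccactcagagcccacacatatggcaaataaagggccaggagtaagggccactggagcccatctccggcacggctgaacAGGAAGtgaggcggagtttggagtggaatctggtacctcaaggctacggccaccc
Cd22: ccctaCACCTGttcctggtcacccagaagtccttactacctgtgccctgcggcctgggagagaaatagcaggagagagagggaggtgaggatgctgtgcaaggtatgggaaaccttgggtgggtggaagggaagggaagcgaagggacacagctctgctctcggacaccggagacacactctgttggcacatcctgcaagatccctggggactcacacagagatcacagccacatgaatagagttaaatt
Ptpn6: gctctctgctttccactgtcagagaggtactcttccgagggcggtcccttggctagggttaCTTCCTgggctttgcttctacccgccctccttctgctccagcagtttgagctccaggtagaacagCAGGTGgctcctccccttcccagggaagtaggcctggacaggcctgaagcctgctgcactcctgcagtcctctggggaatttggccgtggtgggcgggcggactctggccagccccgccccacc
Blnk: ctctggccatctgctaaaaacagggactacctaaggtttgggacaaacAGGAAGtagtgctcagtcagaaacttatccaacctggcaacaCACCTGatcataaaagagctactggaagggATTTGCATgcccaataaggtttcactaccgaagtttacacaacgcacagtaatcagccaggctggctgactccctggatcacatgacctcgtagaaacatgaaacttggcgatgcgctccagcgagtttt

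All 4 windows held the E box, which starts 154 bases before the start in Cd79a, 245 in Cd22, 124 in Ptpn6 and 160 in Blnk. It is present in 17.2% of the 32851 windows of this length in the table. The ETS core is in 3 of the 4, at 55 bases in Cd79a, 189 in Ptpn6 and 202 in Blnk, against 29.5% of all windows. The octamer was found in Blnk alone among these 4, 130 bases before the start and in 1.60% of all windows. The matches did not overlap one another. These are matches of letters, and no binding was measured. Of the 9 genes, 7 had a window in this table, and Syk had 2. The windows of Syk, Btk and Plcg2 are not shown and held neither the ETS core nor the octamer. The ETS core was thus in 3 of the 8 windows of these genes. The E box was in the windows of Syk and Plcg2 and not in that of Btk.

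In CPM, both receptor chains were higher in CC than in CB, and highest in follicular-like cells. Cd79a (ENSMUSG00000003379, chromosome 7 from 24897381 to 24902197, plus strand of GRCm38) was at 2534, 2330, 2850 and 2231 CPM in CB, and at 3742, 3649, 4073 and 3541 CPM in CC. Follicular-like cells held 6258, 6059, 8000 and 6382 CPM, above the GC classes in every library. Marginal zone-like cells, at 3597 to 4163 CPM, overlapped CC in their range over libraries. Prememory cells, the class that the deposited annotation places at the end of the path out of the GC, held 2952 to 3747 CPM. The plasma-like cluster of 230 cells, a class chosen after the data were seen, was at 914 to 1150 CPM. This was below all other B cell classes in CPM, and T-like cells held 129 to 154 CPM. In UMIs per cell, plasma-like cells were at 14.30, 13.02, 14.16 and 9.64, above follicular-like cells in C and CK and below them in WT and K. Median UMIs per cell were 9934 to 16241 in plasma-like and 1195 to 2115 in follicular-like cells. The low CPM therefore does not show fewer Cd79a transcripts per plasma-like cell, which was not tested.

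Cd79b (ENSMUSG00000040592, chromosome 11 from 106311341 to 106314762, minus strand) was at 2110, 2079, 2207 and 1935 CPM in CB. In cells transitioning from CB to CC it was at 3113, 3085, 3446 and 3069 CPM, above CB in every library and close to its CC levels of 2554, 2918, 3147 and 3092 CPM. Prememory cells returned to 2009 to 2507 CPM, a range that overlapped that of CB. Follicular-like cells were highest again, at 4120 to 5336 CPM, while marginal zone-like cells held 2674 to 3034 CPM and T-like cells 126 to 161 CPM.

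**Figure D1:**
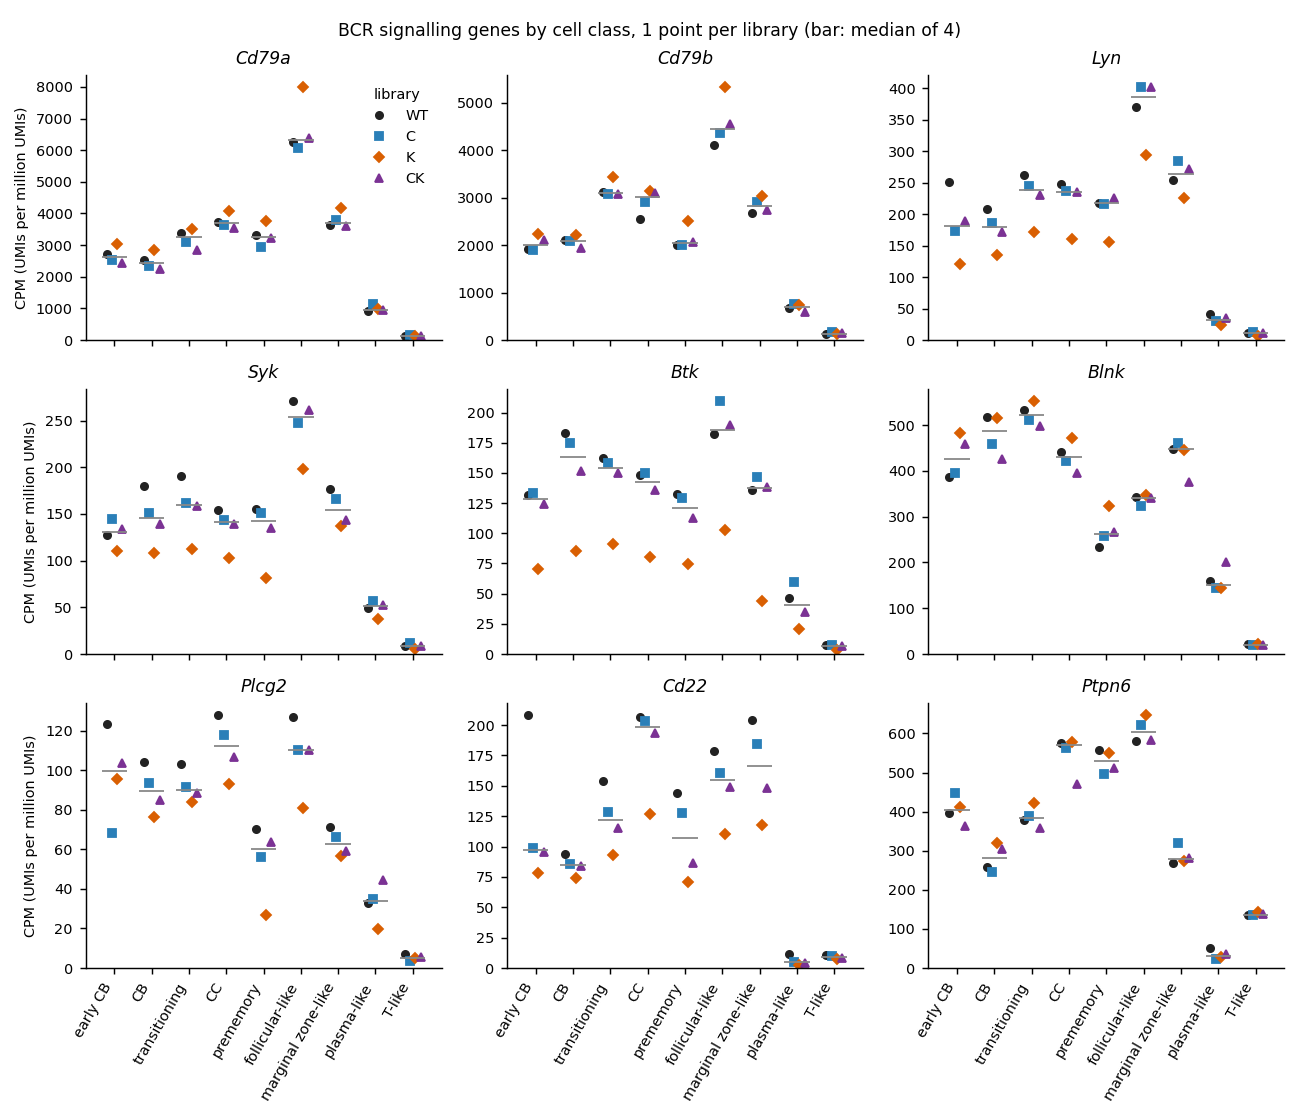
Level in CPM (vertical axes from 0) of the 9 BCR signalling genes in 9 cell classes, with 1 point for each of the 4 libraries and a bar at their median. Cd79a, Cd79b, Lyn, Syk, Btk and Ptpn6 have their highest medians in follicular-like cells, Blnk in transitioning cells, and Cd22 and Plcg2 in CC. The K library lies below the others for Lyn, Syk, Btk and Cd22 in most classes.

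Among the kinases, Lyn was higher in CPM in CC than in CB in all 4 libraries, while Syk and Btk were not. Lyn (ENSMUSG00000042228, chromosome 4 from 3678115 to 3813122, plus strand) was at 208, 186, 134 and 172 CPM in CB, and at 247, 236, 161 and 235 CPM in CC. In non-GC B-like cells it was at 344, 374, 283 and 384 CPM, above CC in each library. Syk (ENSMUSG00000021457, chromosome 13 from 52583173 to 52648792, plus strand) was at 179.8, 152, 108 and 139.7 CPM in CB and at 154, 143, 103 and 139 CPM in CC, so that each library was slightly lower in CC. Its non-GC B-like levels were 249, 228, 189 and 245 CPM. Btk (ENSMUSG00000031264, chromosome X from 134542336 to 134583570, minus strand) was at 183, 175, 85.6 and 152 CPM in CB and 149, 150.2, 80.7 and 136 CPM in CC. The K value was the lowest of the 4 libraries for all 3 kinases in CB, in CC and in non-GC B-like cells, where Btk was at 171.5, 195, 94.1 and 182 CPM.

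The adaptor Blnk had its highest median level in transitioning cells, at 534, 511, 553 and 499 CPM. Blnk (ENSMUSG00000061132, chromosome 19 from 40928927 to 40994535, minus strand) was at 518, 459, 515 and 426 CPM in CB, and at 441, 422, 471 and 395 CPM in CC, lower in all 4. Follicular-like cells held 324 to 346 CPM, and prememory cells 233, 259, 324 and 266 CPM. Marginal zone-like cells were at 376 to 461 CPM, a range that overlapped those of CB and CC. Plcg2 (ENSMUSG00000034330, chromosome 8 from 117498291 to 117635142, plus strand), which Blnk brings to Btk, was at 104, 93.3, 76.5 and 85.1 CPM in CB, 128, 118, 93.1 and 107 CPM in CC and 70.05, 56.3, 27.0 and 63.8 CPM in prememory cells. The value of 27.0 CPM in K rests on 8 UMIs and has an exact Poisson interval from 11.7 to 53.3 CPM. Intervals, here and for the genotypes, have a level of 95% and take in counting error alone.

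Both inhibitors were lower in CPM in CB than in CC in all 4 libraries. Cd22 (ENSMUSG00000030577, chromosome 7 from 30865402 to 30880342, minus strand) was at 93.5, 85.6, 74.5 and 83.9 CPM in CB and at 207, 203, 127 and 194 CPM in CC, with no overlap between both classes. It was nearly absent from plasma-like cells, at 11.9, 5.0, 2.19 and 4.17 CPM, which is within or below the 7.64 to 10.8 CPM of T-like cells except in WT. Ptpn6 (ENSMUSG00000004266, chromosome 6 from 124720707 to 124738714, minus strand) was at 259, 246, 320.3 and 305 CPM in CB and at 575, 564, 579 and 470.3 CPM in CC. Follicular-like cells held 579.6 to 648 CPM and marginal zone-like cells 269.7 to 321 CPM, again without overlap. T-like cells held 136 to 142 CPM of Ptpn6, which many blood cells express, and plasma-like cells 23.3 to 50.6 CPM.

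Differences between classes were tested on UMI sums of the 4 libraries with edgeR's quasi-likelihood test and Benjamini-Hochberg adjustment over 9757 genes. The libraries differ in genotype, so a contrast is the mean over genotypes. The labels of the GC classes were made from transcripts of the same cells, the 9 genes possibly among them, so that these tests are not independent of the labels. From CB to CC, 6 of the 9 genes rose and none fell, where 24.9% of all genes were higher and 24.4% lower. Cd22 rose most, with a log2 fold change of 1.14 ± 0.08 (SE; adjusted p = 7.50e-23), followed by Ptpn6 at 1.00 ± 0.06 (1.84e-22), Cd79a at 0.68 ± 0.04 (9.03e-27), Cd79b at 0.57 ± 0.04 (3.17e-21), Lyn at 0.41 ± 0.07 (9.74e-08) and Plcg2 at 0.39 ± 0.09 (7.46e-05). Each of the 6 was higher in CC in 4 of 4 libraries, in CPM. Blnk at -0.06 ± 0.06 (adjusted p = 0.381), Btk at -0.11 ± 0.07 (0.216) and Syk at -0.01 ± 0.07 (0.980) did not pass. The median of the 9 was 0.41, against 0.03 over all genes. In the mean over libraries both inhibitors had larger fold changes than the receptor chains. In CK, however, the log2 ratio of Ptpn6 was 0.62, against 0.67 for Cd79a and 0.68 for Cd79b. Median UMIs per cell were 4741, 3498, 3811 and 2670 in CC and 5502, 4936, 5526 and 4604 in CB. In UMIs per cell, Lyn and Plcg2 were lower in CC in C, K and CK, and higher in WT. Cd79a, Cd79b and Ptpn6 were lower in CC in CK and higher in the other libraries. Cd22 was higher in CC in every library. These values follow the depth of the cells as well and were not tested.

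**Figure D2:**
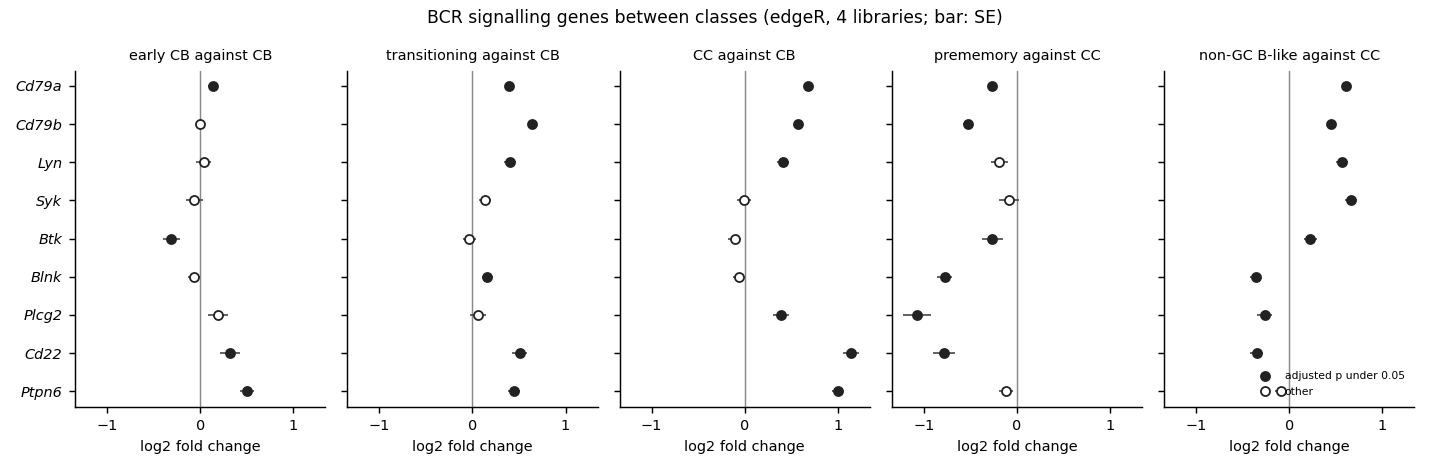
Log2 fold change (horizontal axes) of the 9 genes in 5 contrasts between classes, from edgeR over 4 libraries, with the SE as a bar. Filled points have an adjusted p under 0.05. In CC against CB, Cd22 and Ptpn6 lie farthest to the right and Syk, Btk and Blnk at 0, and in prememory cells against CC no gene lies to the right of 0.

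Part of this difference was already present in transitioning cells. Against CB, 6 of the 9 genes were higher and none lower, where 16% of all genes were higher and 15% lower. Cd79b led with 0.64 ± 0.04 (adjusted p = 6.12e-24), near its full difference between CC and CB, while Cd22 at 0.51 ± 0.08 and Ptpn6 at 0.45 ± 0.06 were at less than their values in CC. Lyn was at 0.41 ± 0.06 and Cd79a at 0.39 ± 0.04, both called. Blnk was also called, at 0.16 ± 0.06 (adjusted p = 0.0197), but it did not pass without C (0.15), without K (0.16) or without CK (0.14). Plcg2 at 0.06 ± 0.08, Syk at 0.14 ± 0.07 and Btk at -0.03 ± 0.07 did not pass.

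Early CB, which the annotation separates from CB, held few cells, from 38 in WT to 342 in CK. Against CB, 3 of the 9 genes were higher and 1 lower, where 13.4% of all genes were higher and 13.9% lower. Ptpn6 was higher in all 4 libraries, at 0.51 ± 0.07 (adjusted p = 6.48e-08), and Cd79a at 0.13 ± 0.04 (0.0163). Btk was lower, at -0.31 ± 0.09 (0.00528), but did not pass without C (-0.26). Cd22 was higher, at 0.32 ± 0.11 (0.0190), with 208 CPM in WT and 98.6, 77.9 and 95.7 in C, K and CK, and did not pass without WT (0.21). Plcg2, at 0.19 ± 0.11, passed only without C (0.35) or after thinning each cell to the same number of UMIs (0.46). Neither Cd79a nor Cd22 passed when GC B-like cells with more genes than the annotation allows were added (0.06 and 0.08).

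Prememory cells had lower levels of most of the genes than CC. Of the 9 genes, 6 fell and none rose, where 19.9% of all genes were higher and 17.9% lower. Plcg2 fell most, with a log2 fold change of -1.07 ± 0.15 (adjusted p = 1.55e-09), then Cd22 at -0.79 ± 0.12 (1.71e-08), Blnk at -0.77 ± 0.08 (4.12e-14), Cd79b at -0.53 ± 0.05 (3.52e-17) and Cd79a at -0.27 ± 0.04 (3.47e-07), each lower in 4 of 4 libraries. Btk was lower at -0.26 ± 0.11, just at the threshold (adjusted p = 0.050), and did not pass without WT (-0.31), without C (-0.31) or without CK (-0.25). Lyn at -0.19 ± 0.09 (0.0958), Ptpn6 at -0.12 ± 0.08 (0.216) and Syk at -0.09 ± 0.11 (0.610) did not pass. Ptpn6 was at 497 to 557 CPM in prememory cells, against 470 to 579 CPM in CC, where Cd22 in prememory cells was at 71.0 to 144 CPM. In UMIs per cell, Ptpn6 was lower in prememory cells in every library. It was at 2.03, 1.45, 1.75 and 1.18, against 2.75, 2.06, 2.37 and 1.36 in CC, which follows depth as well and was not tested. Of the 578 prememory cells, 562 lay in the clusters called non-GC B-like here, and their 8 GC markers summed to 136 to 226 CPM, near the level of those clusters.

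Non-GC B-like cells differed from CC in both directions. Here 5 of the 9 genes were higher and 3 lower, where 26.5% of all genes were higher and 27.5% lower. Syk was higher by 0.66 ± 0.07 (adjusted p = 3.11e-15), Cd79a by 0.61 ± 0.04 (2.58e-24), Lyn by 0.57 ± 0.06 (5.41e-14) and Cd79b by 0.45 ± 0.04 (5.86e-16), each in 4 of 4 libraries. Btk was higher by 0.23 ± 0.07 (0.00354) but did not pass without CK (0.19) or after thinning to equal UMIs per cell (0.11). Blnk was lower at -0.36 ± 0.06 (5.34e-08), Cd22 at -0.35 ± 0.07 (2.32e-05) and Plcg2 at -0.26 ± 0.08 (0.00391), the last not after thinning (-0.25). Ptpn6, at -0.09 ± 0.06 (0.221), passed as lower without CK (-0.15) and after thinning (-0.28). Median UMIs per cell were 1223 to 2181 in non-GC B-like cells and 2670 to 4741 in CC. Erythroid markers summed to 559.9 CPM in non-GC B-like cells of WT and 1008 CPM in those of C, against 3.72 in K and 8.31 in CK, and to 924.5 CPM in transitioning cells of C, against at most 12.8 CPM in the other sums tested. Their part in these results was not tested. Fewer transcripts of a gene per cell and more transcripts of other genes cannot be told apart in CPM. In UMIs per cell the 5 genes called higher were lower than in CC in every library. Cd79a was at 14.4, 10.4, 14.3 and 8.35 UMIs per cell, against 17.9, 13.3, 16.7 and 10.2 in CC. These values follow the depth of the cells as well and were not tested.

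Within the non-GC cells, follicular-like exceeded marginal zone-like cells in CPM for 7 of the 9 genes in all 4 libraries. The difference of Ptpn6 was largest, with a log2 ratio of 0.96 to 1.24 over libraries, followed by Cd79a at 0.67 to 0.94, Plcg2 at 0.51 to 0.89, Cd79b at 0.58 to 0.81, Syk at 0.52 to 0.87, Btk at 0.42 to 1.22 and Lyn at 0.38 to 0.56. Blnk was lower in follicular-like cells in 4 of 4 libraries, at -0.51 to -0.14, and Cd22 had values from -0.20 to 0.01. No test was run on this pair, and the ranges of Plcg2, Cd79a, Cd79b, Lyn, Syk and Ptpn6 did not overlap between both classes, nor did those of Blnk, while those of Btk and Cd22 did. The share of all genes that differ in these ways was not computed, so the counts do not set the 9 genes apart from others. Median UMIs per cell were 1195 to 2115 in follicular-like and 1864 to 3262 in marginal zone-like cells. In UMIs per cell, Lyn was lower in follicular-like cells in every library. Syk was lower there in WT, C and K, Btk in WT, C and CK, Cd79b in WT and C, and Plcg2 in K. Cd79a and Ptpn6 stayed higher in follicular-like cells in every library. These values follow depth as well and were not tested.

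Along the deposited pseudotime, which runs from CB to prememory cells, position was taken as the share of the 1227 WT cells that come before a cell, and cells were placed in 5 bins with equal numbers of WT cells. Median levels over libraries went from 93.6 CPM in bin 1 to 193 in bin 5 for Cd22, from 2514 to 3973 for Cd79a, from 188 to 247 for Lyn and from 344 to 511 for Ptpn6, with bin 5 above bin 1 in 4 of 4 libraries for each. Cd79b peaked at 3323 CPM in bin 4, from 2084 in bin 1, and was at 3230 in bin 5. Blnk peaked earlier, at 496 CPM in bin 3, and was lower in bin 5 than in bin 1 in all 4 libraries, at 385 against 469. Plcg2 peaked at 107 CPM and Syk at 170 in bin 4, and Btk at 161 in bin 3. For Btk, bin 5 was above bin 1 in 2 of 4 libraries. Prememory cells made up 47.8%, 39.9%, 18.8% and 12.7% of bin 5. Without them, Cd79b was highest in bin 5, at 3508 CPM, Cd22 reached 213 CPM, Ptpn6 peaked at 501 CPM in bin 4, and Blnk fell less, to 440. The path was built from the same transcripts, so these values are a description.

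**Figure D3:**
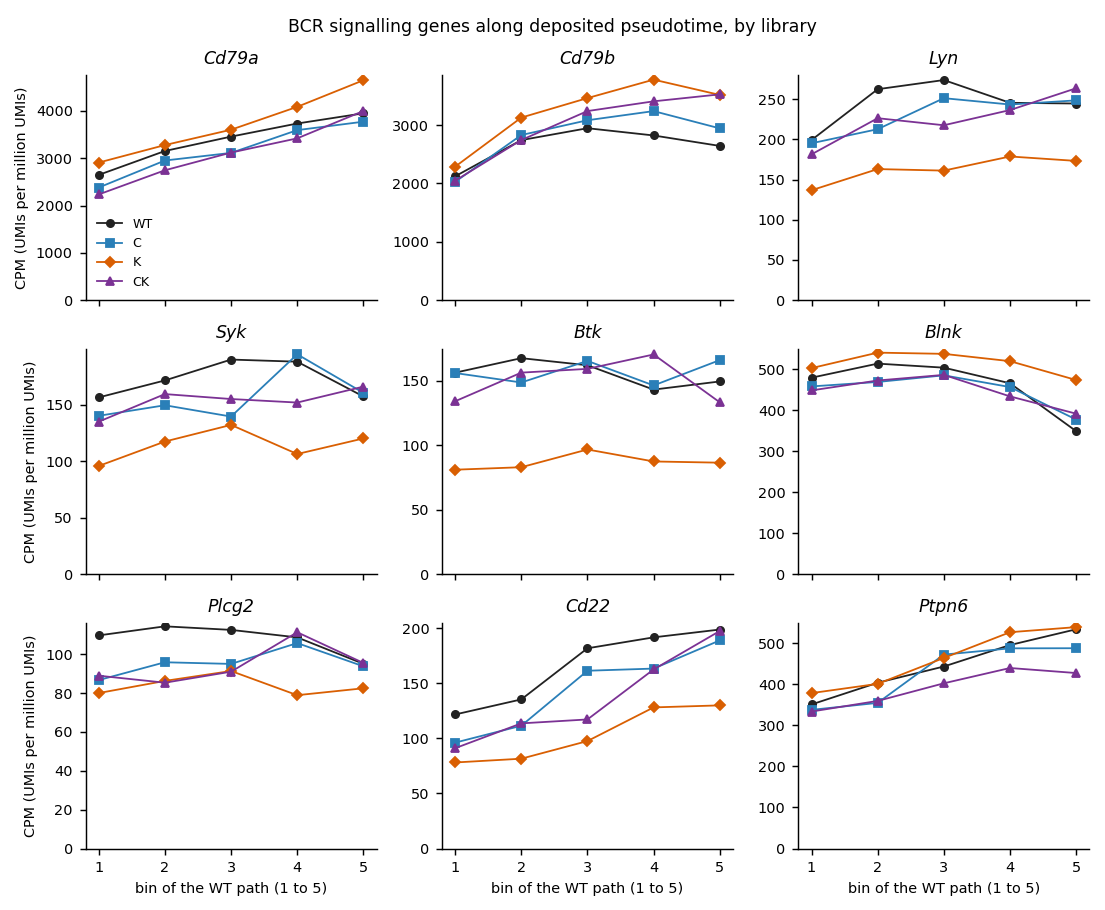
CPM (vertical axes from 0) of the 9 genes in 5 bins of the WT path of the deposited pseudotime, with 1 line per library. Cd79a, Cd22 and Ptpn6 rise to bin 5 in the median, Blnk has its highest median in bin 3, and K runs below the other libraries for Lyn, Syk, Btk and Cd22.

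Genes differed in how alike their patterns were. Over the 24 sums of library and class, centred within each library, the Pearson r of log2(CPM + 1) was 0.95 between Cd79a and Lyn, 0.91 between Cd79b and Lyn and 0.88 between both receptor chains. Syk had r of 0.80 with Cd79b, 0.79 with Lyn and 0.73 with Btk, and Cd22 had 0.67 with Ptpn6. Blnk had its highest value with Plcg2, at 0.61, and was at -0.62 with Ptpn6, -0.34 with Cd79a and 0.08 with Cd79b. These sums share libraries and classes and are not independent, so no p is given. Among 4428 genes compared, the genes most like each member were Nedd9 (0.96) for Cd79a, Ypel3 (0.97) for Cd79b, Cd79a itself for Lyn, B3gnt8 (0.94) for Syk, Traf3ip3 (0.89) for Btk, Mzb1 (0.98) for Blnk, Atp2a3 (0.94) for Plcg2, H2-DMb2 (0.92) for Cd22 and Napsa (0.95) for Ptpn6. Mzb1 encodes an endoplasmic reticulum protein of B cells that make much immunoglobulin, and H2-DMb2 a chain of the peptide exchanger of MHC class II. Next in order came Ikbkb and Siglecg for Cd79a, Tnfaip8l2 and Lsp1 for Cd79b, Smim20 and Lsp1 for Lyn, Dnajc7 and Mindy2 for Syk, Mirt1 and Ssh2 for Btk, Trp53i11 and Plekho1 for Blnk, Prdm2 and Ppp1r18 for Plcg2, Lat2 and AC149090.1 for Cd22 and Hivep3 and Cd52 for Ptpn6, all at r of 0.87 to 0.97.

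The other genes of the pathway were described with a list of 47 coreceptors, inhibitory receptors, kinases, adaptors and targets, all of which were tested. From CB to CC, 37 of the 47 were higher and 3 lower, where 24.9% and 24.4% of all genes were, with a median log2 fold change of 0.65. The highest were Sh3bp2 (2.94 ± 0.39), an adaptor that binds Syk, and the inhibitory receptors Pirb (2.45 ± 0.33) and Cd5 (2.36 ± 0.58). The 3 lower were Akt1 (-0.98 ± 0.08), a kinase downstream of phosphoinositide 3-kinase, the inhibitory adaptor Dok3 (-0.26 ± 0.07) and Prkcd (-0.19 ± 0.08). All 5 inhibitory receptors of the list, Fcgr2b (0.56), Siglecg (0.79), Cd72 (1.44), Cd5 and Pirb, passed as higher, as did Cd22 among the 9, and so did the targets Egr1 (2.03), Nr4a1 (2.14), Nfatc1 (0.63) and Nfatc2 (0.78). In transitioning cells against CB, 14 of the 47 were higher and 2 lower, where 16% and 15% of all genes were. The highest called were Bank1 (0.60), Cd81 (0.59) and Lat2 (0.59), and the lower were Cd72 (-0.47) and Bcl10 (-0.20). Early CB against CB had 8 higher and 6 lower, shares near the 13.4% and 13.9% of all genes, with the immediate early gene Nr4a1 (1.69 ± 0.49), Egr1 (0.80) and Cd81 (0.63) at the top and Malt1 (-0.54), Dok3 (-0.43) and Rasgrp3 (-0.36) at the bottom.

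From CC to prememory cells, 25 of the 47 pathway genes were lower and 6 higher, where 17.9% and 19.9% of all genes were, with a median of -0.47. Lowest were the inhibitory Fc receptor Fcgr2b (-1.77 ± 0.14), the kinase Fyn (-1.69 ± 0.25) and the exchange factor Rasgrp3 (-1.63 ± 0.16), and highest were Vav3 (2.87 ± 0.35), Nr4a1 (1.65 ± 0.40) and the phosphatase gene Ptpn22 (1.65 ± 0.30). In non-GC B-like cells against CC, 16 were higher and 19 lower, where 26.5% and 27.5% of all genes were, with a median of 0.04. Pirb (2.19), Vav3 (2.12) and Ptpn22 (1.82) were highest and Fyn (-1.50), Rasgrp3 (-1.29) and the adaptor Grb2 (-1.25) lowest. Fyn, Rasgrp3, Vav3 and Ptpn22 were thus among the named genes in both comparisons, which share the CC sums.

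**Figure D4:**
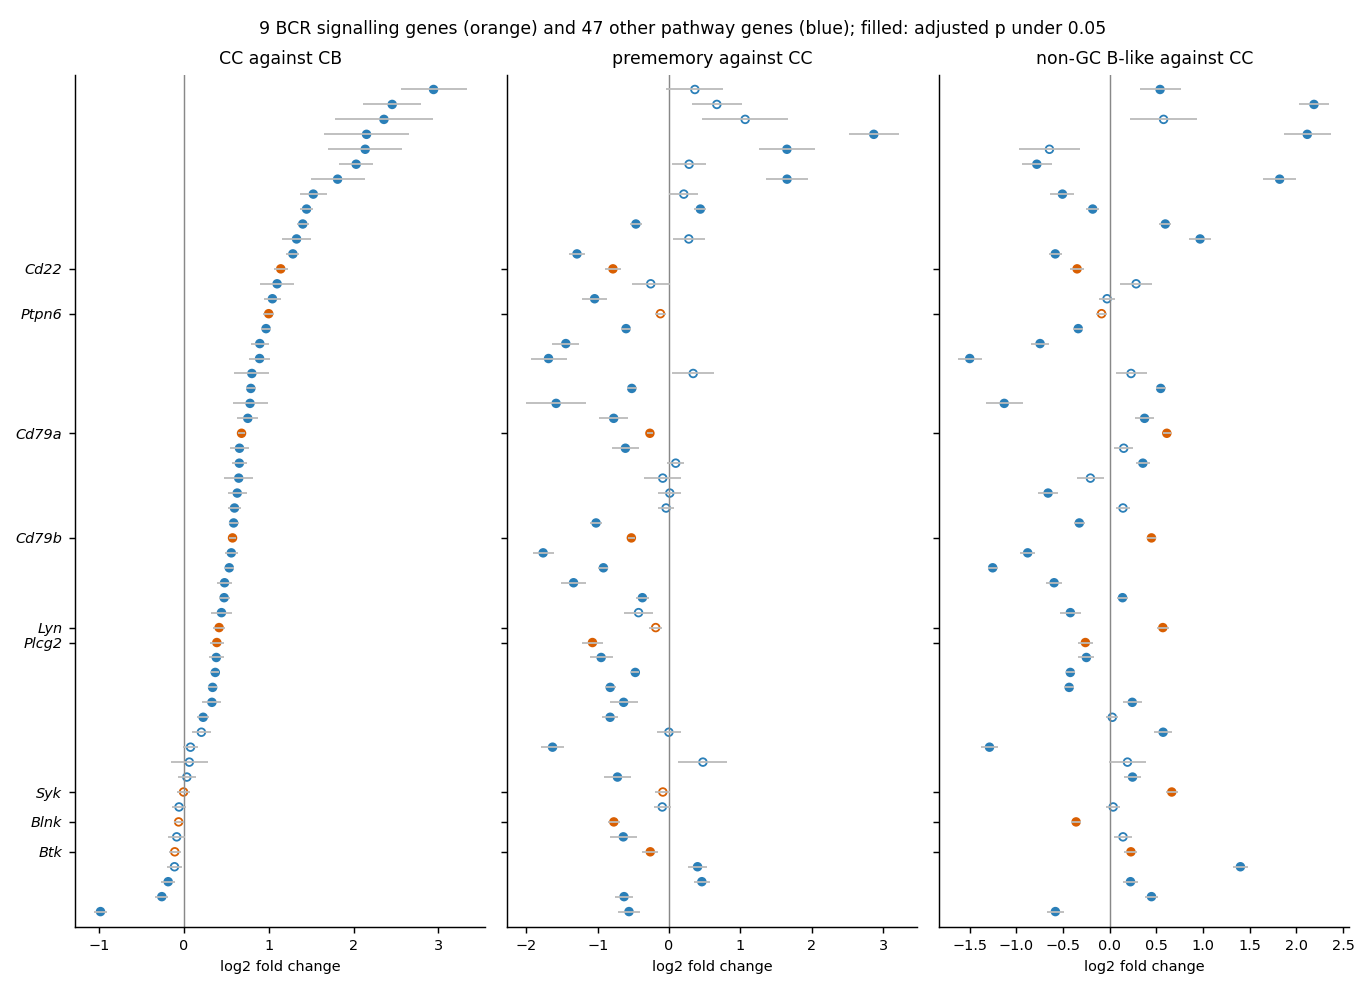
Log2 fold change with SE of the 9 genes (orange) and 47 other pathway genes (blue) in CC against CB, prememory cells against CC and non-GC B-like cells against CC, in the order of the left panel, with names at the 9 genes. Filled points have an adjusted p under 0.05. In the left panel 37 of the 47 other genes lie to the right of 0 as called, and in the middle panel 25 lie to the left.

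Genotypes were compared with WT by the log2 ratio of CPM within a class. With 1 library each there is no replicate check and no test, and all 3 mutants share the WT library. A gene was called where the ratio reached 0.5 in either direction, counting only genes whose UMIs in the pair of libraries summed to 100 or more. In C none of the 9 genes was called in CB, in CC or in non-GC B-like cells, where 9.93%, 4.43% and 2.99% of all genes were. Of the ratios of C, Cd79a at -0.12 (-0.19 to -0.05) and Blnk at -0.17 (-0.33 to -0.01) in CB and Cd79b at 0.19 (0.14 to 0.25) in CC had intervals that left out 0. In non-GC B-like cells, where counts were highest, 8 of the 9 intervals did, 4 above and 4 below 0, with ratios from -0.19 for Plcg2 to 0.19 for Btk. The share of all genes whose intervals left out 0 was not computed, so this count does not set the 9 genes apart from others. Syk ranged from -0.25 to -0.11 over the 3 classes.

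In CK, likewise, none of the 9 was called in these 3 classes, where 19.4% of all genes were in CB, 7.36% in CC and 4.82% in non-GC B-like cells. Most of the 9 had values below 0 in CB, with a median of -0.27 against -0.02 over all genes. Syk was at -0.36 (-0.61 to -0.11), Blnk at -0.28 (-0.42 to -0.14), Lyn at -0.27 (-0.50 to -0.04), Btk at -0.27 (-0.51 to -0.02), Cd79a at -0.18 (-0.25 to -0.12) and Cd79b at -0.12 (-0.19 to -0.05). Ptpn6 went from 0.24 (0.04 to 0.44) in CB to -0.29 (-0.41 to -0.17) in CC, and Cd79b was at 0.28 (0.22 to 0.33) in CC, both opposite in sign between these classes. In non-GC B-like cells Cd79b was at 0.18 (0.15 to 0.21) and Cd22 at -0.31 (-0.48 to -0.14). When the cells with more genes were added, the CB ratios of Cd79b and Ptpn6 became 0.07 and -0.21.

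In these 3 classes the genes were called in K alone, always as lower. In CB 3 of the 9 were called, where 25.3% of all genes were: Btk at -1.10 (-1.37 to -0.82), Syk at -0.74 (-1.0 to -0.47) and Lyn at -0.63 (-0.87 to -0.38). In CC 4 were, where 23.5% of all genes were: Btk at -0.88 (-1.15 to -0.61), Cd22 at -0.71 (-0.93 to -0.49), Lyn at -0.62 (-0.82 to -0.42) and Syk at -0.58 (-0.83 to -0.33). In non-GC B-like cells 3 were, where 25.3% of all genes were: Btk at -0.87 (-1.08 to -0.66), Cd22 at -0.73 (-0.92 to -0.54) and Plcg2 at -0.57 (-0.81 to -0.34). Cd79a, at 0.17 in CB, 0.12 in CC and 0.39 in non-GC B-like cells, and Cd79b, at 0.07, 0.30 and 0.40, had values above 0 in K. Relative to non-GC B-like cells none of the 9 was called, and the K ratio was -0.02 for Btk and 0.02 for Cd22 in CC, and -0.23 for Btk, -0.34 for Syk and -0.35 for Lyn in CB. The non-GC class itself was made up differently in K, with marginal zone-like cells at 9.86% against 15.6% in WT, as it also was in CK, at 9.21%. Within follicular-like cells alone Btk was at -0.82 and Cd22 at -0.70, and within marginal zone-like cells at -1.62 and -0.79. The part of the library in these values was not tested beyond this comparison.

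The other annotated classes are given as values only. In early CB, where WT had 38 cells, the ratios of Cd22 in C, K and CK were -1.08 (-1.64 to -0.51), -1.42 (-1.93 to -0.89) and -1.12 (-1.59 to -0.63), and the WT library stood apart from the others for this gene. Lyn was at -0.53 (-1.0 to -0.05) in C and -1.06 (-1.51 to -0.60) in K there, and Btk at -0.91 (-1.52 to -0.26) in K. In transitioning cells of K, Btk was at -0.83 (-1.03 to -0.64), Syk at -0.75 (-0.93 to -0.58), Cd22 at -0.72 (-0.92 to -0.52) and Lyn at -0.61 (-0.76 to -0.46). In prememory cells Syk was at -0.94 (-1.66 to -0.27) in K. Of the members with at least 100 UMIs, no others reached 0.5 in these classes.

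**Figure D5:**
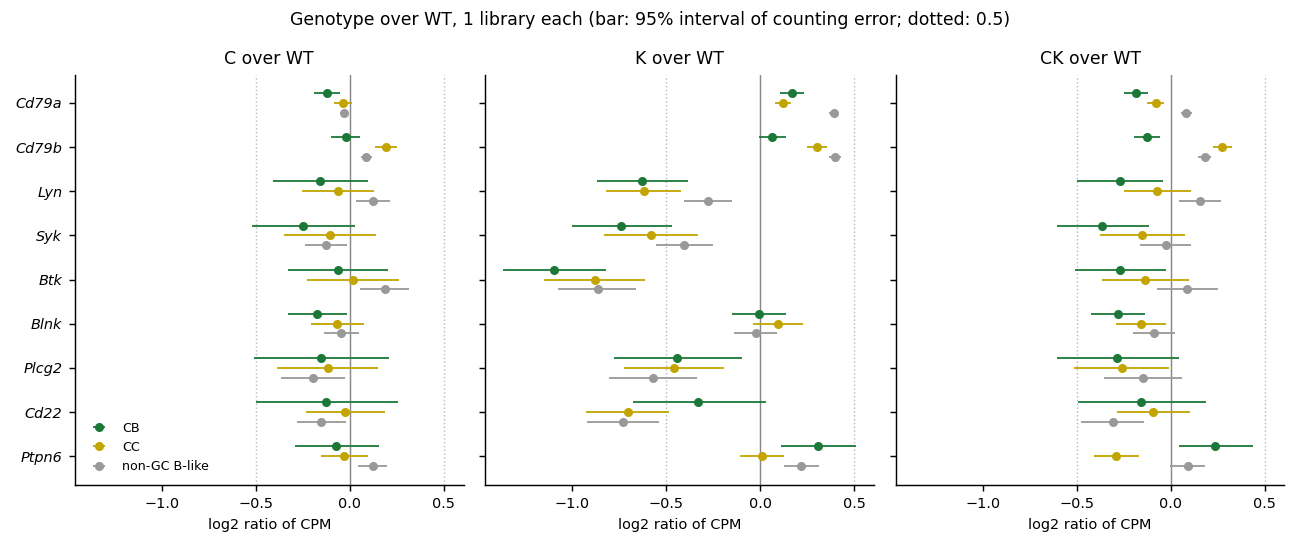
Log2 ratio of CPM of C, K and CK over WT (horizontal axes) for the 9 genes in CB, CC and non-GC B-like cells, with 95% intervals of counting error and dotted lines at 0.5. In K, Btk lies below -0.5 in all 3 classes, and in C and CK every point lies between the dotted lines.

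Of the 47 other pathway genes, those with enough UMIs numbered 32 to 44 in a class. In C, 1 of 32 was called in CB, as lower, 1 of 35 in CC, which was Cd72 (-0.58), and 0 of 44 in non-GC B-like cells. Of all genes, 9.93%, 4.43% and 2.99% were called in these classes of C. In CK, 3 of 34 were lower in CB, among them Blk (-0.55) and Lat2 (-0.63), where 19.4% of all genes were called in either direction. In CC of CK, Blk (-0.51) was lower and Orai1 (0.77) higher, of 38, where 7.36% of all genes were called. In non-GC B-like cells of CK, Cr2 (-0.74), Pik3cd (-0.64) and Ptpn22 (-0.56) were lower and Orai1 (0.63) higher. These were of 44, where 4.82% of all genes were called. In K, 1 was higher and 7 lower of 34 in CB, 2 and 11 of 36 in CC, and 1 and 15 of 42 in non-GC B-like cells, where 25.3%, 23.5% and 25.3% of all genes were called in either direction, so that the share in CB was no higher than that of all genes. The scaffold gene Malt1, at -1.17 in CB, -0.73 in CC and -1.05 in non-GC B-like cells, and Ptprc, the gene of the B220 phosphatase itself, at -0.77, -0.88 and -0.92, were among those lower in all 3 classes, and Cd72 was higher in all 3, at 0.73, 0.54 and 0.60. These genes were chosen for mention after their values were seen.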

How the data were processed

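Sorted cells of 1 mouse per genotype were loaded as 1 library each. The authors counted UMIs per gene and barcode with Cell Ranger 3.0, on mm10 per the processing notes of the submitters, and deposited raw counts. The deposited cell table of the authors, processed with Seurat 4.0, gives for GC B cells the percent of mitochondrial UMIs, class names transferred from earlier data sets and a pseudotime rank. All 9804 cells matched a barcode, and the UMI totals were equal in 79.9% and differed by at most 5. Module scores, cell cycle calls and velocity counts were not used here, and no column of other samples was present (0).

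The members and all gene lists were chosen with earlier results of these data known. Barcodes under 8% mitochondrial UMIs were clustered in scanpy 1.11.5 (Leiden method, igraph 0.11.9, 2000 variable genes, 30 principal components, 15 neighbours, resolution 1) without the 9 genes, immunoglobulin and mitochondrial genes, and named by marker lists. Beside the lists given in the report, the other lists, summed over CC, were 37.2 to 57.2 CPM for T, 2.12 to 5.19 for natural killer, 17.5 to 22.8 for plasmacytoid dendritic, 166 to 225 for myeloid, 0.400 to 7.38 for erythroid (other classes in the report), 2129 to 2626 for plasma, 256 to 324 for marginal zone and 47175 to 50475 CPM for pan-B markers. Clusters led by markers of another class stayed unnamed. Doublets were kept in the main values (Scrublet called 3.32 to 5.01% per library).

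UMIs were summed per library and class of at least 20 cells. Sums of 235276 to 6109377 UMIs entered edgeR 4.0.16 in R 4.3.3 (TMM, filterByExpr, robust quasi-likelihood fit, class and library as terms), which was also tested on simulated data. The 4 libraries were the replicates of class contrasts, with a threshold of 0.05 on the adjusted p. The library term takes out the level of each mouse. The p-values therefore measure how differences between classes vary over these mice, in which genotype and mouse cannot be told apart. DESeq2 1.42.0 was an alternative. The scripts used scikit-learn 1.9.0, pandas 2.3.3, scipy 1.17.1 and numpy 2.4.6. Genotype ratios carry exact conditional binomial intervals. The pseudotime rank was made by the authors for pairs of libraries, so the rank within the own library was subtracted from it. Recycling cells, 8 to 49 per library, entered no test. Named genes were all 9 members, per contrast the 3 highest and 3 lowest called pathway genes, and the 3 genes most like each member among those with at least 50 CPM in any sum. Coordinates are those of GENCODE vM21 on GRCm38. A motif of EBF was also searched in the promoter windows and is not reported here. The genotype ratios of some pathway genes are not reported here.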

Additional observations from a re-analysis of the deposited data

Results flagged for a closer look

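Of 54 groups of 4 libraries, 8 had a library far from the other 3, where about 1 in 20 groups is flagged by chance. K was the library in 6 of them. It was low for Btk in early CB (70.2 CPM), for Cd22 in CC (126.6 CPM), and for Lyn in CC (160.6 CPM) and in prememory cells (155.4 CPM), and high for Cd79b in transitioning cells (3446 CPM) and prememory cells (2507 CPM). The other two were WT for Cd22 in early CB (208.3 CPM, from 38 cells) and CK for Ptpn6 in CC (470.3 CPM).

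The ratio of CK over WT pointed in opposite directions in CB and CC for 2 genes. It was -0.124 in CB and 0.276 in CC for Cd79b, and 0.237 in CB and -0.290 in CC for Ptpn6. When cells above the gene limit were added, the CB ratios became 0.07 for Cd79b and -0.21 for Ptpn6, the same sign as in CC. With 1 library per genotype these differences were not tested.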

How the results depend on the processing

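The direction of every called class difference was kept under the alternatives run. Of 495 class values under alternatives, 450 kept direction and call, 19 lost the call, 8 gained it and 18 changed sign, the last all in genes that did not pass. These were Syk in CC against CB, at 0.0045 with DESeq2 and 0.086 with cells above the gene limit added, Syk in prememory cells (0.0018 after thinning), and Btk (0.00057) and Plcg2 (-0.12) in transitioning cells with those cells added. In early CB, Cd79b was at 0.037 with DESeq2, 0.071 with added cells, 0.0018 without Scrublet calls and 0.022 without immunoglobulin, mitochondrial and ribosomal genes, Plcg2 at -0.045 and Blnk at 0.015 with added cells, and Lyn at -0.040 after thinning. Leaving out 1 library gave -0.054 to 0.065 for Cd79b, -0.098 to 0.015 for Syk, -0.16 to 0.019 for Blnk and -0.024 to 0.11 for Lyn in early CB, and -0.15 to 0.012 for Ptpn6 in non-GC B-like cells. The number of the 9 genes called in early CB went from 4 to 2 with added cells and after thinning, which leaves fewer UMIs. Counts of genes called in K over WT went from 3 in CB and 4 in CC to 0 in both relative to non-GC B-like cells, where Cd22 in CC turned to 0.024. In CK, Plcg2 in CB (-0.55) passed with added cells and Ptpn6 in non-GC B-like cells (-0.58) after thinning, which took both counts from 0 to 1. Apart from these, the cause was not tested. No paired analysis of genotypes was possible because each had 1 library. Depth limits Plcg2, Cd22 and Btk in prememory cells most, with 8, 21 and 22 UMIs in K.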
